A study of Nicotiana tabacum with 10 samples.

Results

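The 100 gene models described here were those with the most even read share across auxin-free and auxin-supplied tobacco BY-2 cells. They were taken from 69500 gene models by a rule on the measured values. A model had to reach at least 20 CPM (counts per 1000000 estimated reads of its library) in all 10 libraries, which 5497 models did. Of these, the 100 with the lowest coefficient of variation (CV, the sample SD divided by the mean, over the 10 CPM values) were kept. They are called the steady models below.

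BY-2 is a fast-dividing suspension line of Nicotiana tabacum cv. Bright Yellow 2 that depends on an auxin in its medium. The 3 auxin-free samples were inoculated into Murashige and Skoog medium with no 2,4-dichlorophenoxyacetic acid (2,4-D), a synthetic auxin. The 7 control samples had 2,4-D at 0.2 mg/l in the same medium. All were collected 48 h after inoculation and are labelled as in the exponential growth phase, and both groups come from 1 cell line grown in the dark. Only the controls are described as biological replicates. Whether the auxin-free replicates are separate cultures is not stated, and any p-value then rests on a spread that may be technical in part.

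Auxin sustains division of BY-2 cells, and its withdrawal is known to turn them from dividing toward elongating and storing starch. Transcripts whose share of the RNA stays even through such a change are the usual candidates for reference genes, against which other transcripts are scaled in quantitative PCR. Transcripts for basic functions such as translation, the cytoskeleton or protein turnover are often used for this in plants, although none is even in every setting. The models carry Nitab4.5 identifiers that the files do not pair with gene names, and none of them (0 matches) was found in the available list of tobacco genes. The steady models are therefore described by identifier, level, length and position, with no function given.

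The libraries held 15159895 to 16216471 estimated reads in the auxin-free group and 11280031 to 23705016 in the control group. At these depths 20 CPM stood for 226 to 474 reads, and the lowest value of any steady model in any library was 229 reads. The 2 groups lie far apart in the rest of the transcriptome: edgeR's quasi-likelihood fit called 63.3% of 37034 tested models at a Benjamini-Hochberg threshold of 0.05, 32.9% as higher and 30.4% as lower in auxin-free samples. Among the 5497 models from which the steady ones were drawn, 65.8% were called, 26.8% as higher and 39% as lower.

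At the even end of the list 2 members came first, by the rule that chose them. Nitab4.5_0002129g0040.1, a model of 2744 bases, had the lowest CV of all, 4.31%. It had 74.1, 72.8 and 73.8 CPM in the 3 auxin-free libraries, and in the 7 controls a lowest value of 70.0, a median of 72.6 and a highest of 80.0 CPM. The auxin-free values lay inside the range of the controls, and control replicate 7 was the highest library. Its mean was 73.6 ± 0.666 CPM in auxin-free samples (SD, n = 3) and 74.2 ± 3.87 CPM in controls (SD, n = 7).

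Nitab4.5_0000761g0010.1, of 1753 bases, followed with a CV of 4.48%. Its auxin-free libraries had 137, 131 and 137 CPM, and its controls had a lowest value of 128, a median of 133 and a highest of 147 CPM. Again the groups overlapped fully, with means of 135 ± 3.63 CPM in auxin-free samples (SD, n = 3) and 136 ± 7.11 CPM in controls (SD, n = 7). From these 2 models the CV climbed in small steps to 8.61% at the last member, while the first model left out had 8.62%. The median over the 100 was 7.48%, against 28.3% over the 5497. The edge of the list is therefore a cut through a continuous order and marks no gap.

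**Figure D1:**
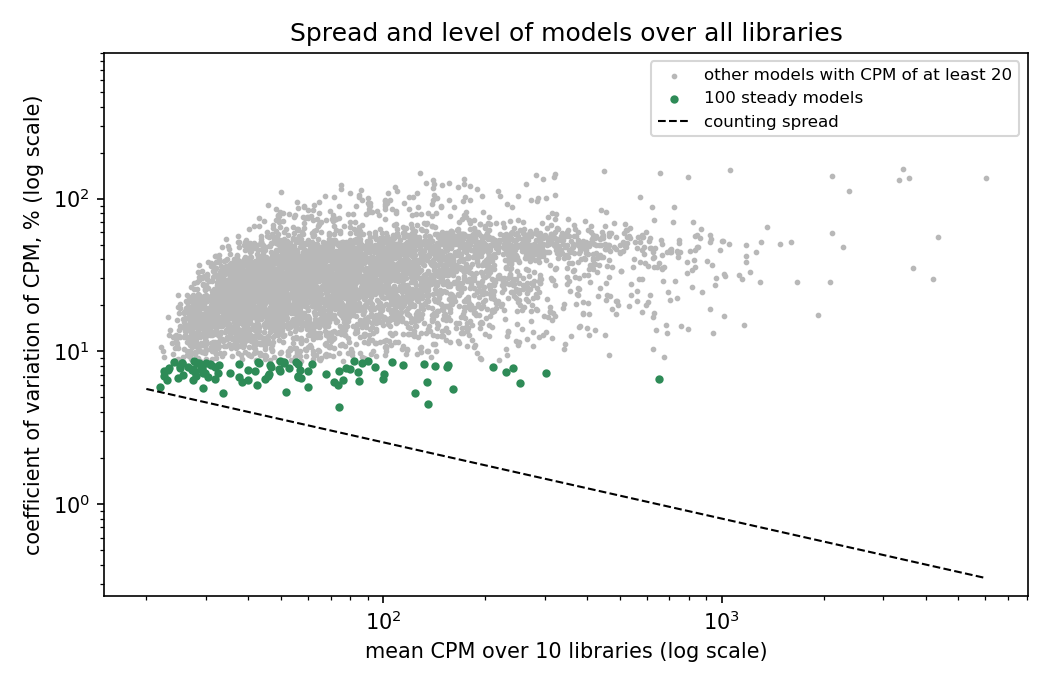
Coefficient of variation of CPM (percent, log axis) against mean CPM over the 10 libraries (log axis) for 5497 gene models. Green points are the 100 steady models, grey points the others, and the dashed line is the spread that counting of reads alone would give. The steady models lie between 4.31 and 8.61%, at the lower edge of one continuous cloud.

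The CV that chose the steady models can be set beside the spread that counting of reads alone gives. For each model this counting spread was computed from its mean CPM and the 10 library totals. The observed CV was a median of 1.95 times the counting spread in the steady models and 9.35 times in the 5497. The CV was under 2 times the counting spread in 51 of the 100, against 69 of all 5497. The rule took the lowest CVs, so both gaps follow from the choice. The member nearest to it was Nitab4.5_0000255g0220.1, the least abundant of the list by CPM, at 1.08 times. It had 23.1, 22.5 and 23.3 CPM in auxin-free libraries, and 20.3 (lowest), 21.1 (median) and 24.1 CPM (highest) in controls, with 229 reads in the library where it had fewest. Reads that Salmon divides among similar models can vary by more or less than counting gives, so this comparison covers counting error only.

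At the abundant end the spread was further above counting. Nitab4.5_0000106g0380.1, of 2818 bases, was the most abundant steady model on both scales, with a mean of 655 CPM and 148 TPM (reads per effective length, scaled to a fixed sum in each library). Its auxin-free mean was 650 ± 43.7 CPM (SD, n = 3; range 607 to 694) and its control mean 657 ± 46.1 CPM (SD, n = 7; range 599 to 716). Its CV of 6.57% was 6.64 times the counting spread, the highest such ratio in the list, with a counting spread of 0.989% and 7212 reads in the library where it had fewest.

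Across the 100, group means were close by construction. The log2 ratio of the auxin-free mean to the control mean (CPM) ran from -0.20 to 0.22, with a median of -0.01, and 44 members had the higher mean in auxin-free samples. In the 5497 the same ratio ran from -3.94 to 6.35, with a median of -0.22. The group means lay within 10% of each other in 87 of the 100, against 632 of the 5497. No single value of a steady model departed from that model's own mean by more than 1.23-fold. The highest library exceeded the lowest by a median of 1.27-fold, against 2.34-fold in the 5497.

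Inside each group the spread was low too, which the choice on these same 10 values brings with it. The members' median CV was 6.20% among the 3 auxin-free libraries and 6.99% among the 7 controls, against 12.2% and 15.7% in the 5497. The deviation of the members had medians of -0.03 to 0.00 log2 units in auxin-free libraries and -0.03 to 0.01 in controls. The extremes of a member could fall in any library. The highest of its 10 values lay in an auxin-free library for 28 members and in a control for 72, and the lowest for 32 and 68. Control replicate 5 held the lowest value of 22 members and the highest of 16, more extremes than any other library. Control replicate 2 held the lowest of 2 and the highest of 1. Deviations of different members were mostly unrelated: the Pearson correlation over the 10 libraries had a median of 0.00 over 4950 pairs, with quartiles of -0.26 and 0.29. In the 5497 the quartiles were -0.58 and 0.64. All pairs share the same 10 libraries and their totals, so these are descriptions. The rule left out models with a large difference between the groups, so nothing is read from the narrower quartiles of the members.

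**Figure D2:**
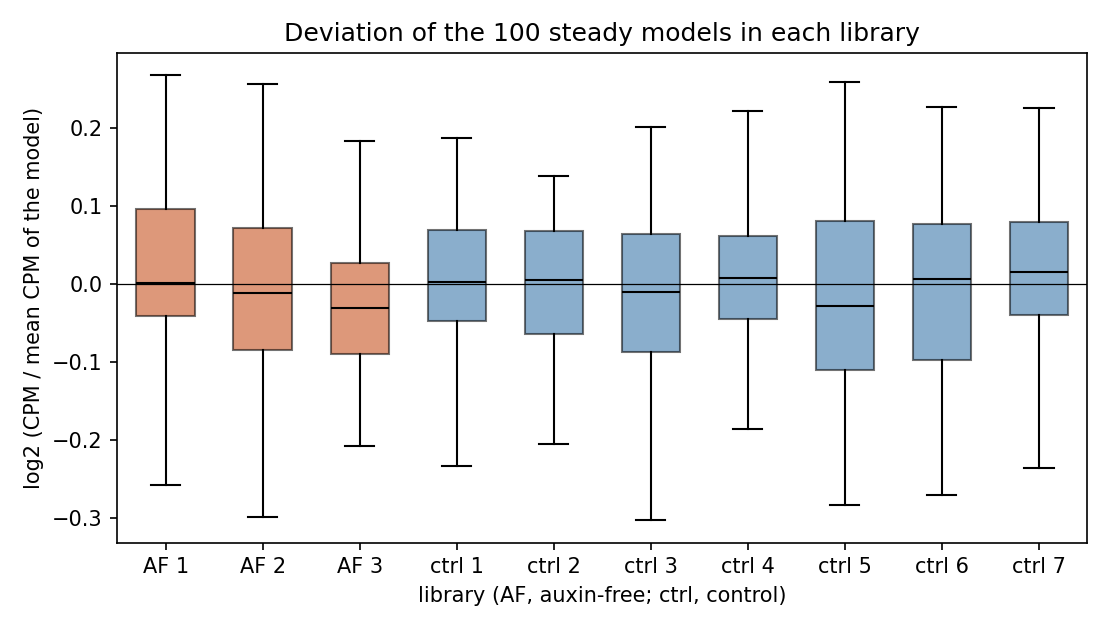
Deviation of the 100 steady models in each library, as log2 of CPM over the model's mean CPM. Boxes give the quartiles with the median, whiskers the full range; the 3 auxin-free libraries (AF) are on the left and the 7 controls (ctrl) on the right. Every median lies between -0.03 and 0.01, and the whiskers of all libraries overlap.

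A few members kept a gap between the groups that their low CV hides. Auxin-free and control values were fully separated in 5 of the 100, where the share among the 5497 was 59.5%. The rule used these same values, so nothing is read from the lower count. Of the 5, the auxin-free libraries lay above every control in 3 (21.9% of the 5497) and below every control in 2 (37.6%). The 5 were named after their values were seen, although 3 of them also have the highest or lowest ratios of the list.

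Nitab4.5_0000068g0170.1, of 1830 bases, had the highest ratio. It had 170, 181 and 168 CPM in auxin-free libraries, and a lowest value of 144, a median of 149 and a highest of 153 CPM in controls. The lowest auxin-free library was thus above the highest control. The means were 173 ± 7.34 CPM in auxin-free samples (SD, n = 3) and 148 ± 3.37 CPM in controls (SD, n = 7), a log2 ratio of 0.22. Its control CV of 2.27% was the lowest of any steady model, and the difference of 16.6% exceeded the spread within either group.

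Nitab4.5_0002450g0040.1, of 1880 bases, was the last model inside the list. It had 31.9, 31.3 and 29.2 CPM in auxin-free libraries, against 24.9 (lowest), 26.1 (median) and 28.4 CPM (highest) in controls. The groups were separated by less than 1 CPM at their nearest. Its means were 30.8 ± 1.39 CPM in auxin-free samples (SD, n = 3) and 26.4 ± 1.11 CPM in controls (SD, n = 7). Among the 3 was also Nitab4.5_0001247g0010.1, of 1115 bases, which had 98.7, 84.1 and 84.7 CPM in auxin-free libraries, against 71.9, 79.8 and 83.2 CPM as lowest, median and highest control. Here auxin-free replicate 1 lay farthest above the controls, while the other auxin-free libraries exceeded the highest control by under 2 CPM.

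On the other side, Nitab4.5_0001695g0030.1, of 2067 bases, had the lowest ratio. Its auxin-free libraries had 151, 129 and 142 CPM, and its controls had a lowest value of 153, a median of 163 and a highest of 168 CPM. Every auxin-free library lay below every control, by a narrow margin for auxin-free replicate 1. The means were 141 ± 10.9 CPM in auxin-free samples (SD, n = 3) and 161 ± 5.91 CPM in controls (SD, n = 7), a log2 ratio of -0.20.

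Nitab4.5_0000324g0020.1, of 1483 bases, had 54.5, 54.1 and 48.5 CPM in auxin-free libraries and 54.8 (lowest), 56.7 (median) and 64.2 CPM (highest) in controls. Less than 1 CPM parted the nearest values. Nitab4.5_0006743g0030.1, of 1276 bases, had the second lowest ratio, -0.18, but its groups touched. Its auxin-free libraries had 51.8, 48.0 and 56.5 CPM, against 55.9 (lowest), 60.0 (median) and 61.6 CPM (highest) in controls.

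**Figure D3:**
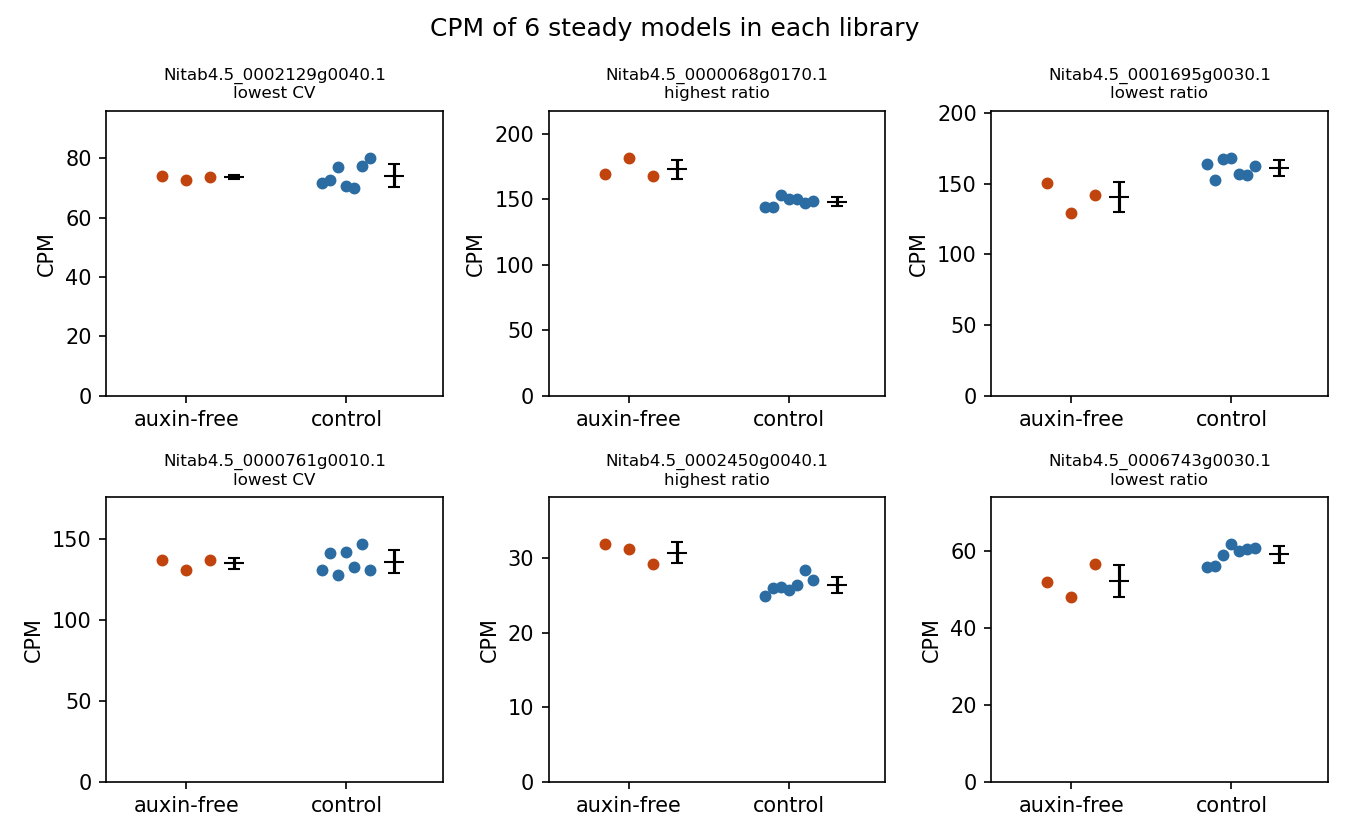
CPM of 6 steady models in each of the 3 auxin-free (orange, left) and 7 control libraries (blue, right), with the mean and SD beside the points; the axes start at 0. The 2 models of lowest CV overlap fully, the 2 of highest ratio lie above all controls, and of the 2 of lowest ratio only Nitab4.5_0001695g0030.1 lies below all controls.

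Tested with edgeR over all models, 1 of the 100 was called at the same threshold, beside 63.3% of all tested models. The directional backgrounds were 32.9% higher and 30.4% lower over all models, and 26.8% and 39% over the 5497. That member was Nitab4.5_0002450g0040.1, higher in auxin-free samples. No member (0) was called with library totals, DESeq2 size factors, no filter or a replicate block, beside 62.6, 63.4, 45.3 and 56.6% of all models. Leaving out 1 library also gave 0, except for control replicate 5, where 2 were called. More were called on other scales: 3 with upper-quartile scaling (3 lower), 7 with effective-length offsets (6 lower) and 19 with limma on log2(TPM + 1) (0 lower). Beside these, 64.1, 63.4 and 59.2% of all models were called. In the reported edgeR fit none was called lower, and at an unadjusted p under 0.05 there were 2 higher and 0 lower. At that p, 1569 of the 5497 were higher and 2263 lower. Of all 37034 tested models, 12834 were higher and 11944 lower. DESeq2 called 2 higher and 0 lower, beside 64.9% of all models in either direction, 33% higher and 31.9% lower. limma-voom also called 2 higher and 0 lower, beside 63.4% in either direction, 34% higher and 29.5% lower. The members were chosen for small differences in these libraries, so the low count repeats the choice and is no test of it. The same holds for the 95% interval of the fold change. This interval lay within 1.5-fold in either direction for all 100, against 18.0% of the 5497 and 7.66% of all tested models. It lay within 1.2-fold for 1 of the 100, against 2 of the 5497 and 3 of all 37034 tested models. For the other members it reached past that size, so a difference within 1.2-fold was not shown for them at this depth and replication.

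How level the list is on average depended on the scale set for a library. The median log2 fold change of the 100 (auxin-free over control) was -0.01 with library totals alone, the scale on which they were chosen, and 0.04 with edgeR's TMM scaling. Upper-quartile scaling put it at -0.14, but moved the median of all tested models to -0.16, against 0.02 with TMM. Relative to all tested models the members' median thus lay at 0.02 under both scalings. The 5497 models from which they were drawn had a median of -0.17 with TMM, below the members' 0.04. TMM factors ran from 0.962 to 0.986 in auxin-free libraries and from 0.936 to 1.08 in controls. Chosen on TMM-scaled CPM, 52 of 100 models were the same. In bulk samples, less RNA per cell and fewer cells cannot be told apart, and an even share of reads does not say that the amount of a transcript per cell was even.

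Evenness could also be measured in libraries that the choice did not use. Each library was left out in turn, 100 models were chosen by the same rule on the other 9, and their level in the left-out library was set against their mean in those 9. The median absolute log2 deviation of the chosen models was 0.14, 0.17 and 0.09 when auxin-free replicates 1, 2 and 3 were left out, against 0.47, 0.64 and 0.47 for all models over the minimum. When a control was left out it ran from 0.07 (replicate 1) to 0.16 (replicate 5), against 0.23 to 0.44 for all models. In each of the 10 libraries the median deviation of the chosen models was below that of all models. They were still less even there than inside the choice, where the median absolute deviation of the 100 was 0.067 to 0.073 in auxin-free libraries and 0.053 to 0.089 in controls.

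The worst case was auxin-free replicate 2. Of the 100 models chosen without it, 67 lay within 1.2-fold of their mean in the other 9 libraries, against 22.2% of all models over the minimum. The farthest of them lay at -1.12 log2 units, and 4 deviated by more than 1.5-fold. Without auxin-free replicate 3, 93 lay within 1.2-fold, and without control replicate 1, 99 did. The lists chosen this way held 68 to 93 of the 100 steady models, with the fewest when auxin-free replicate 2 was left out. The 10 values share libraries, and each choice that left out an auxin-free library still used 2 others of that group.

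**Figure D4:**
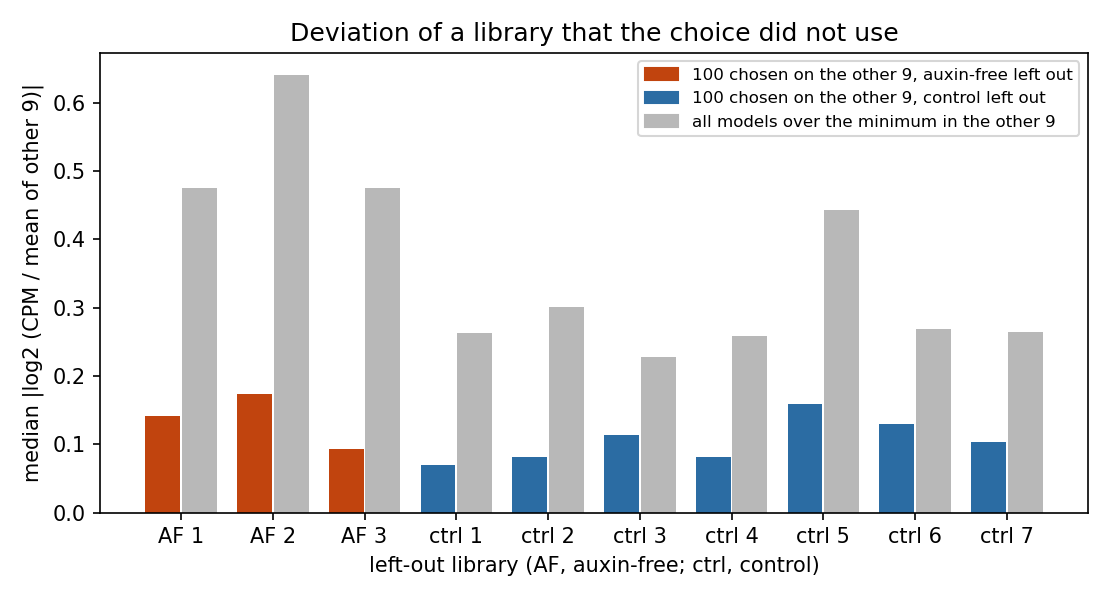
Median absolute log2 deviation of a left-out library from the mean of the other 9, for 100 models chosen on those 9 (coloured bars; orange for auxin-free, blue for control) and for all models over the minimum there (grey bars). The coloured bars lie between 0.07 and 0.17 and below the grey bar of every library.

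Models were also chosen on a single group, so that the other group was not used. Choosing on the 7 controls alone gave 100 models with a median CV of 3.83% among controls. Their group means differed by a median of 0.76 log2 units, against 0.81 for all 7335 models with at least 20 CPM in the controls. Of those 100 models 40 differed by more than 2-fold, 3 higher and 37 lower in auxin-free samples, and among the 7335 the share was 40.6%, 6.58% higher and 34% lower. The minimum was set in the controls alone, which favours models that are high there, so the directions partly follow from it. Of the 100, 9 were steady models, and the 7335 held all 100 steady models.

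Choosing on the 3 auxin-free libraries alone gave a smaller median difference. The group means of those 100 models differed by a median of 0.55 log2 units, against 0.81 for all 8768 models with at least 20 CPM in the auxin-free libraries. Of the 100, 19 differed by more than 2-fold, 18 higher and 1 lower in auxin-free samples, where the share among the 8768 was 40.3%, 27.5% higher and 12.9% lower. Here the minimum was set in the auxin-free libraries alone, which favours models that are high there, so these directions partly follow from it too. The median CV of these 100 models among auxin-free libraries, 0.885%, lay below their counting spread of 3.37%, since the rule took the closest triplets of values. The list shared 4 models with the steady list, all 100 members of which were among the 8768. Steady models themselves ranked a median of 1658 among the 8768 by auxin-free CV and 625 among the 7335 by control CV.

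**Figure D5:**
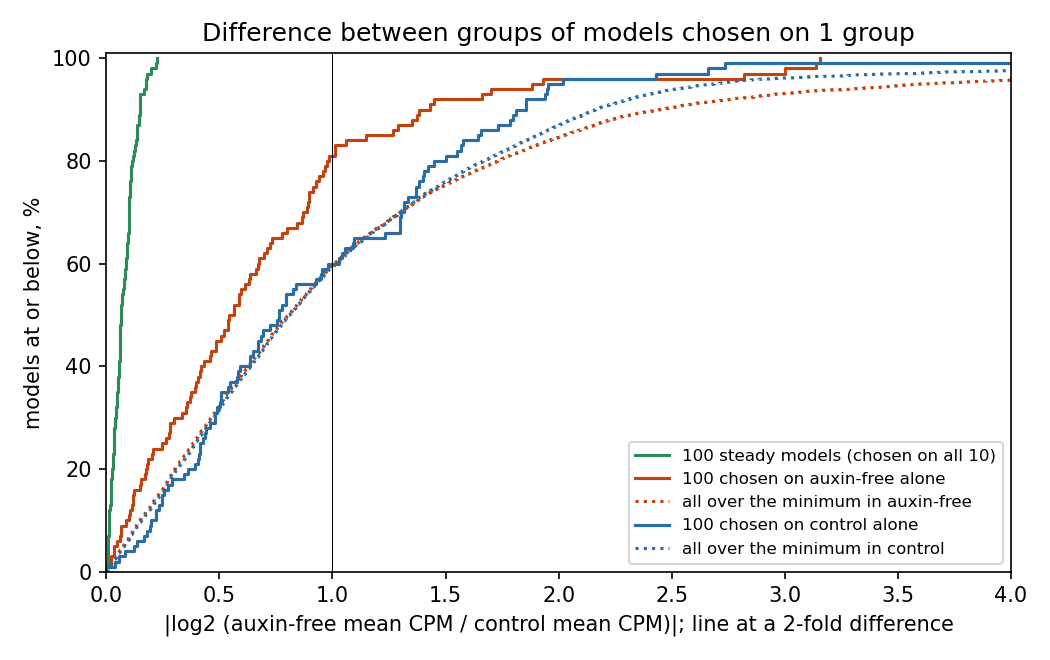
Cumulative percent of models by the absolute log2 ratio of the auxin-free mean to the control mean (CPM). Solid lines are the 100 steady models (green), 100 chosen on auxin-free libraries alone (orange) and 100 chosen on controls alone (blue); dotted lines are all models over the minimum in the same group, and the vertical line marks a 2-fold difference. The blue solid line runs close to its dotted line, with 40 of 100 models beyond 2-fold against 40.6%.

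Neither level nor length was part of the ranking, although level set the minimum, and both are given beside the 5497. The steady models were less abundant than the models they were drawn from, with a median of 46.2 against 68.0 CPM and, per length, 21.3 against 34.1 TPM. Split by mean CPM into 3 equal parts, the lowest part (21.9 to 50.3 CPM) gave 55 members, the middle part 27 and the highest part (99.7 CPM and above) 18. Counting error is smallest in abundant models, while the median CV of all models climbed over the same parts, at 21.6, 29.8 and 37.9%. A model with a mean near 20 CPM reaches the minimum in every library only if its spread is small. The minimum thus favours even models in the lowest part, and no trait of steady models is read from this split.

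The steady models were of middle length. Their median was 1635 bases with quartiles of 1274 and 1980, against 1489 bases with quartiles of 1017 and 2160 in the 5497. Of the 100, 9 fell in the shortest of 4 equal length classes of the 5497 (186 to 1017 bases), 31 and 41 in the classes between, and 19 in the longest (2162 bases and above). The median CV of all models was 36.2% in the shortest class, 23.4 and 25.1% in the next, and 29.7% in the longest. The shortest steady model, Nitab4.5_0000612g0160.1 of 696 bases, averaged 26.1 ± 0.891 CPM in auxin-free samples (SD, n = 3) and 24.9 ± 2.32 CPM in controls (SD, n = 7). The longest, Nitab4.5_0000901g0120.1 of 4014 bases, averaged 36.9 ± 0.430 CPM in auxin-free samples and 37.8 ± 3.04 CPM in controls. The length was a multiple of 3 in 45 of the 100, 54.5% of the 5497 and 83.7% of all models. Whether the other lengths include untranslated sequence or come from partial models was not tested.

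The members lay scattered over the assembly, as far as the identifiers show. In an identifier, the digits that precede the g were taken for the scaffold and those that follow it for the place along the scaffold. The 100 models came from 100 different scaffolds, so no 2 were neighbours, and 3 were the only model of their scaffold. How often any other 100 models would share a scaffold was not tested, so the scatter is not read as a trait. The models next to the steady models numbered 168. Of these, 23 also reached 20 CPM in every library (13.7%, against 7.91% of all models). Those 23 had a median CV of 26.6%, near the 28.3% of the 5497. Their group means differed by a median of 0.34 log2 units, against 0.64. Of the 106 neighbours that could be tested, 59 differed between the groups in the edgeR fit, against 63.3% of all tested models.

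Tobacco is an allotetraploid, so a model often has a close copy that came from its second parent species. Only 2 of the 100 had whole counts in every library (tolerance 0.001 reads), the sign that no read was divided with another model, against 2.38% of the 5497. Nitab4.5_0001875g0030.1, of 1459 bases and rank 3 by CV at 5.30%, was one. It had 122, 134 and 129 CPM in auxin-free libraries, and 109 (lowest), 125 (median) and 128 CPM (highest) in controls. The other was Nitab4.5_0006505g0010.1, of 1749 bases, with 50.1, 60.8 and 53.7 CPM in auxin-free libraries and 53.9, 57.8 and 62.4 CPM as lowest, median and highest control. In both the groups overlapped. For the other 98 members the level includes reads shared out by Salmon, so its evenness may rest on how they were shared.

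On the TPM scale the same models were less even. The median CV of the 100 was 14.4% in TPM, against 31.5% for the 5497, and it was 7.48% in CPM. The mean was higher in auxin-free samples for 84 members in TPM, against 47.8% of the 5497, and the median log2 ratio of means was 0.15, against -0.06. In TPM the auxin-free and control values were fully separated in 19 members, where the share among the 5497 was 53.1%. All 19 were higher in auxin-free samples (24.6% of the 5497), and 0 were lower (28.5%). A choice by the same rule on TPM shared 3 models with the steady list. That rule also moved the minimum: 41 of the 100 steady models, and 49.8% of the 5497, had at least 20 TPM in every library and could have been chosen.

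The shift between the scales can be split exactly, since the TPM of a model follows from its CPM, its effective length and a term common to all models of a library. Between the groups the members' effective length, an estimate made library by library, was longer in auxin-free samples for 74 of 100, against 74.1% of the 5497. The median difference was 0.10 log2 units in the members and 0.09 in the 5497. The common term, the library's reads divided by the sum of reads over effective length, differed by 0.29 log2 units. It was 702 ± 14.3 bases in auxin-free libraries (SD, n = 3) and 579 ± 70.5 bases in controls (SD, n = 7).

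The controls themselves were uneven in that term. It was 635, 670 and 651 bases in control replicates 3, 6 and 7, and 494 to 543 bases in the other 4. The summed TPM of the steady models was likewise lowest in those 4. They took 0.340, 0.327 and 0.319% of TPM in the auxin-free libraries, 0.318, 0.330 and 0.327% in control replicates 3, 6 and 7, and 0.245 to 0.271% in the other 4 controls. Summed over reads, by contrast, they took 0.704% ± 0.0136 of reads without auxin (SD, n = 3; lowest 0.693%, highest 0.719%) and 0.712% ± 0.0127 in controls (SD, n = 7; range 0.699 to 0.729%). The 95% Wilson interval of the shallowest library, control replicate 6, ran from 0.715 to 0.724% and covers counting error only. Read counts parted the controls in the same way. The chi-square between 2 libraries, per degree of freedom, was 7.43 to 40.5 among control replicates 1, 2, 4 and 5. It was 18.1 to 30.3 among replicates 3, 6 and 7, and 55.5 to 225 between these sets. Among the auxin-free libraries it was 27.8 to 116. The SDs of the 7 controls pool both sets. What sets control replicates 3, 6 and 7 apart, in the common term or in read counts, was not tested.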

How the data were processed

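RNA of 3 auxin-free and 7 control BY-2 samples was sequenced. The submitters' processing notes name Trimmomatic and Salmon. The sources used here give no versions, options or transcript set. For 69500 models the deposited Salmon tables give an estimated count of reads (not normalized, with shared reads divided among models), TPM (scaled by Salmon to effective length and a common sum), length and effective length, as their headers name them. Groups and replicate numbers come from the titles. Members and lists were chosen with earlier results of these data known.

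CPM was the estimated count over the library total. The counting spread is the Poisson CV at a model's mean CPM, averaged in variance over the 10 library totals. Ratios for choices on 1 group or on the other 9 libraries had 0.1 CPM added. Estimated counts, rounded to whole numbers, entered edgeR 4.0.16 under R 4.3.3 (genes kept by filterByExpr, minimum count 10; TMM; robust quasi-likelihood fits, Benjamini-Hochberg adjustment over 37034 models, threshold 0.05). Alternatives used DESeq2 1.42.0, limma 3.58.1 on log2(TPM + 1) and on voom weights, other scalings, filters, effective-length offsets, whole counts, the replicate number as a block, other choices of members, and each library left out. The fit and the choice were tested on simulated data. Named by rule were the 2 members of lowest CV and the 2 of highest and 2 of lowest ratio of means; members that are extreme in level or length, whose groups do not overlap or with whole counts were added after their values were seen. Libraries of 1 group differed with a chi-square of at least 7.43 per degree of freedom, so none was counted as a duplicate. No gene names could be assigned, so no list of reference genes was run, and no sequences are shown.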

Additional observations from a re-analysis of the deposited data

How the results depend on the processing

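Of the 100 steady models, 1 was called, beside 63.3% of all tested models. It was 0 with DESeq2 size factors, library totals alone, no filter or whole-count models only, the last a fit that held just 2 of the members. It was 2 with DESeq2's test or limma-voom, 3 with upper-quartile scaling, 7 with effective-length offsets and 19 with limma on log2(TPM + 1). All tested models were called at 63.4, 62.6, 45.3 and 55.7% under the first 4 settings, at 64.9 and 63.4% with DESeq2's test and limma-voom, and at 64.1, 63.4 and 59.2% under the last 3. Leaving out 1 library gave 0 to 2: 2 without control replicate 5 and 0 without any other, beside 55.7 to 64.2% of all models. Higher calls, 1 as reported, numbered 0 under the same settings that gave 0 and under upper-quartile scaling, 2 with DESeq2's test and limma-voom (33% and 34% of all models), 19 with TPM (34%) and 0 to 2 without 1 library (29 to 33%). With all 10 libraries, the settings that gave 0 called 24.5 to 32.7% of all models higher. Lower calls, 0 as reported, were 6 with effective-length offsets (31.2% of all models) and 3 with upper-quartile scaling (35.6%). The replicate number as a block gave 0 calls among the members and 20978 among all models (56.6%). Same-numbered libraries had low correlations of their deviations (0.07, -0.10 and -0.03 for numbers 1 to 3). The highest with a control of another number was 0.09, 0.27 and 0.05. A single value is often below the highest of several, so this comparison cannot decide whether the numbers are pairs. The reported fit did not take them as pairs. The median log2 fold change moved to 0.15 with TPM and -0.14 with upper-quartile scaling. It was 0.18 for the 2 members with whole counts in a fit of 2445 whole-count models alone. In the reported fit over all tested models these 2 members had log2 fold changes of 0.12 and -0.03.

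The median CV was 8.27% for models chosen on TPM, 9.27% with at least 50 CPM, 6.71% for 50 models and 8.61% for 200. The median length was 1823 bases for models chosen with DESeq2 size factors and 1066 bases for those chosen on TPM. The chosen models' share of reads in auxin-free and control libraries was 0.808% and 0.849% with TMM scaling, 0.792% and 0.823% with DESeq2 size factors, 0.757% and 0.935% for TPM, 0.608% and 0.618% with at least 10 CPM, 1.31% and 1.35% with at least 50 CPM, 0.397% and 0.402% for 50 models, and 1.38% and 1.41% for 200. With 1 library left out of the choice it ran from 0.660 to 0.814% and from 0.668 to 0.848%. Of the steady models, 41 were chosen again with DESeq2 size factors, 76 with at least 10 CPM, 36 with at least 50 CPM, 98 by the SD of log2 CPM and 87 with equal weight of the groups. The left-out deviation, 0.11 on average over the 10 libraries, stayed between 0.11 and 0.13 under 7 alternatives, of which TPM and DESeq2 size factors were added after seeing the data. The differences of models chosen on 1 group stayed between 0.51 and 0.72 (auxin-free) and between 0.70 and 0.86 (control) under 15 alternatives each. The causes of these shifts were not tested. With 3 auxin-free libraries the 95% interval of the fold change stayed within 1.2-fold for 1 of the 100 members. It did so for 2 of the 5497 and 3 of all 37034 tested models.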
